A study of Selenicereus undatus with 4 samples.

Results

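Kinesin, microtubule and actin genes were examined in pitaya, a climbing cactus, by comparing stems that carried young flower buds with stems that had none. The genes were chosen by name. Rows of the authors' table of differentially expressed genes were taken where the annotation held kinesin, tubulin, microtubule, formin, villin, profilin, myosin, or actin as a word of its own. This gave 148 of the 11051 listed genes, of which 80 were microtubule genes and 68 were actin genes. A further 4 rows held the letters formin only inside the word forming, as in alcohol-forming, and were set apart. The microtubule genes were divided into 52 kinesins, 10 tubulin genes and 18 genes for microtubule-associated proteins. The actin genes were divided into 12 genes for actins and actin-related proteins, 28 for actin regulators and 28 for myosins and their partners.

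The L2 group was sampled 1 week after the bud stage from plants that had received supplementary light at night. The NL group had received no supplementary light and did not flower. All plants were 1-year-old 'Jindu No.1' red-fleshed pitaya, each library was made from several mixed plants, and the sampled stem tips held tissue around the thorn bases. Each group had 3 libraries, and the libraries of the L0 and L1 stages were not analysed here. L2 and NL differ in light and in bud development at once, so these cannot be told apart.

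Microtubules are hollow polymers of alpha- and beta-tubulin. In plants they guide cellulose deposition, build the spindle and form the phragmoplast, the array that lays down the new cell wall after division. Kinesins are ATP-driven motors that walk along, cross-link or shorten microtubules. Actin filaments carry organelles and vesicles on myosin motors, and their growth is set by nucleators such as formins and by proteins that bind, cut or bundle them. Young buds contain dividing and expanding cells, in which both systems are at work.

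The libraries held 5803177 to 7533457 reads in L2 and 3860701 to 5269237 reads in NL. Levels are in RPKM, reads scaled to unigene length and library total. A single read was worth 0.133 to 0.172 RPKM in L2 and 0.19 to 0.259 RPKM in NL for each 1 kb of unigene. The table lists only genes that the authors had called, at FDR 0.05 or less and a log2 ratio of 1 or more in either direction, so a passed test here is no independent evidence of a change. Changes are given as L2 minus NL from limma on log2(RPKM + 0.1), tested two-sided, and p-values were Benjamini-Hochberg adjusted over the 11051 listed genes, with a threshold of 0.05. Gene names come from matches to other species, for 58 microtubule and 42 actin genes to sugar beet (Beta vulgaris). Unigenes that share a name can be pieces of 1 transcript or near-identical copies, which the deposited values do not separate, so their single values are uncertain. These are whole-tissue samples, in which fewer cells of a type and less RNA per cell cannot be told apart.

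Of the 148 genes, 118 were up-regulated in L2, 28 were down-regulated and 2 did not pass the test. Over all listed genes, 63% were higher in L2 and 36.3% were lower. The microtubule genes leaned further to L2 than the listed genes as a whole, with 67 up-regulated, 12 down-regulated and 1 not passing, and a median log2 change of 2.49 against 1.43 for all listed genes. The actin genes lay near the background, with 51 up-regulated, 16 down-regulated and 1 not passing, and a median of 1.53. All 3 L2 libraries stood above all 3 NL libraries for 66 microtubule and 49 actin genes, and below them for 12 and 16. Over the whole table these shares were 62% and 35.5%. A log2 change of at least 3, or 8-fold, was reached by 31 microtubule genes (38.8%) and 14 actin genes (20.6%), against 23.7% of all listed genes. Of the 80 microtubule genes, 3 had a mean under 1 RPKM in L2 and 40 in NL, while of the 68 actin genes 3 had such a mean in L2 and 19 in NL. Of all 11051 listed genes 1436 did in L2 and 2723 in NL.

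Scaling to the listed genes set the L2 libraries lower relative to the NL libraries, by 0.85 on the log2 scale with TMM factors and by 1.08 with DESeq2's size factors. Single genes with few or no reads in a group can still have a larger fitted change from these tools than from limma. With edgeR and TMM factors 53 microtubule and 29 actin genes were higher in L2, against 38.6% of all listed genes. With DESeq2 these counts were 44 and 17, against 25.1%. The down-regulated counts of 12 and 16 were the same under both. The median of the microtubule genes was 1.64 with TMM factors and 1.42 with DESeq2, above the 0.59 and 0.36 of all listed genes. The median of the actin genes was 0.68 and 0.46.

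**Figure D1:**
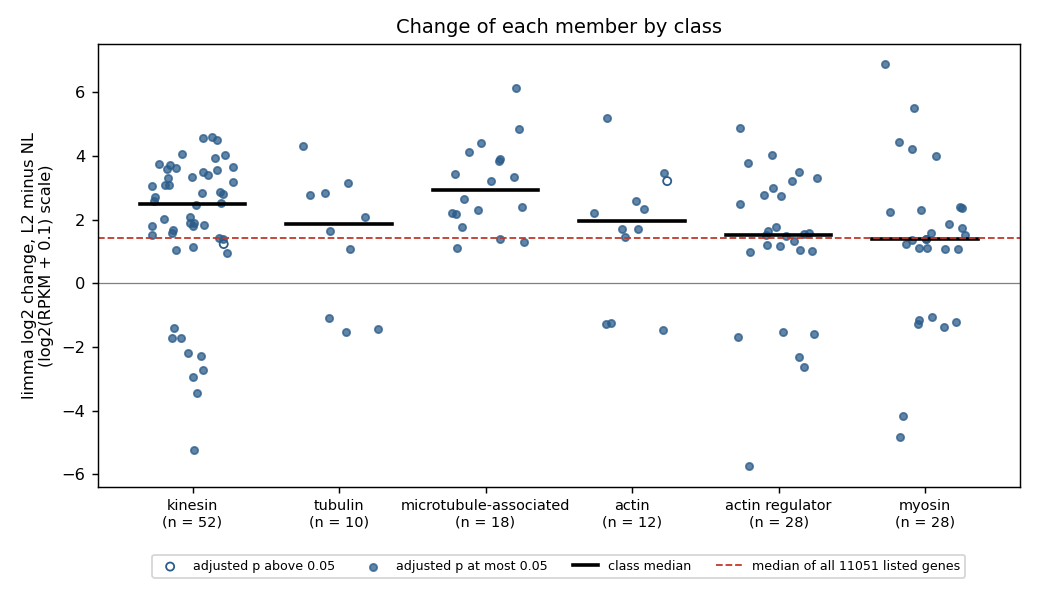
Log2 change of each member, L2 minus NL, by class. Each point is 1 gene, open where the adjusted p was above 0.05, black bars are class medians and the dashed line is the median of all 11051 listed genes (1.43). All 18 microtubule-associated genes lie above 0, while the other 5 classes hold points on both sides.

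L2 replicate 3 stood apart on the microtubule side. It had the highest RPKM of the 3 L2 libraries for 58 of the 67 up-regulated microtubule genes (86.6%), against 45.4% of all 6967 listed genes that were higher in L2 and 23 of the 51 up-regulated actin genes (45.1%). Without this library 62 microtubule and 43 actin genes were higher in L2.

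Lists of genes chosen by tissue words in their names also differed between the groups. Genes marking photosynthetic tissue (chlorophyll a-b binding proteins and the small Rubisco subunit) were lower in L2 for 17 of 20, with the other 3 not passing, and their summed level was 647 to 1544 RPKM in L2 against 3767 to 4652 RPKM in NL. Of these genes, 1 had no read in L2. Genes of a list of floral words, such as AGAMOUS, SEPALLATA and AP2-like, were higher in L2 for 14 of 16 (87.5%, against 63% of all listed genes). Their summed level was 195 to 312 RPKM in L2 and 24.9 to 36.2 RPKM in NL, and 3 of them had no read in NL. The words also took in genes named ANT, AIL5, AIL6, TOE3, AGL12 and AGL19, so the list is broader than floral organ identity. The 2 that fell were AGL19 (Unigene0027094) and an ANT gene (Unigene0038795). All 8 genes named after pollen or tapetum were higher (63% of all listed genes were), at 495 to 577 RPKM in L2 and 189 to 229 RPKM in NL. Of these 8, 1 had no read in NL. The NL group did not flower, so these names do not mark pollen here. The abundant Unigene0030760 and Unigene0031973 averaged 129 and 47.1 RPKM in NL, and changed by 0.081 and 0.077 with DESeq2. With TMM factors 5 of the 8 and 12 of the 16 genes of the floral list were higher (62.5% and 75%, against 38.6% of all listed genes). With DESeq2 4 and 11 were (50% and 68.8%, against 25.1%). The photosynthetic genes were lower for all 20 with TMM factors and for 19 with DESeq2. Of the markers of dividing cells 3 were listed, of which 2 histone H4 genes rose and 1 cyclin-B2-2-like gene fell. Their sum was 25.2 to 47.6 RPKM in L2 and 17.9 to 29.1 RPKM in NL. Histone H4 Unigene0024380 had overlapping libraries and did not pass with TMM factors (adjusted p = 0.30) or DESeq2 (adjusted p = 0.62). The part of these tissues in the results below was not tested.

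**Figure D2:**
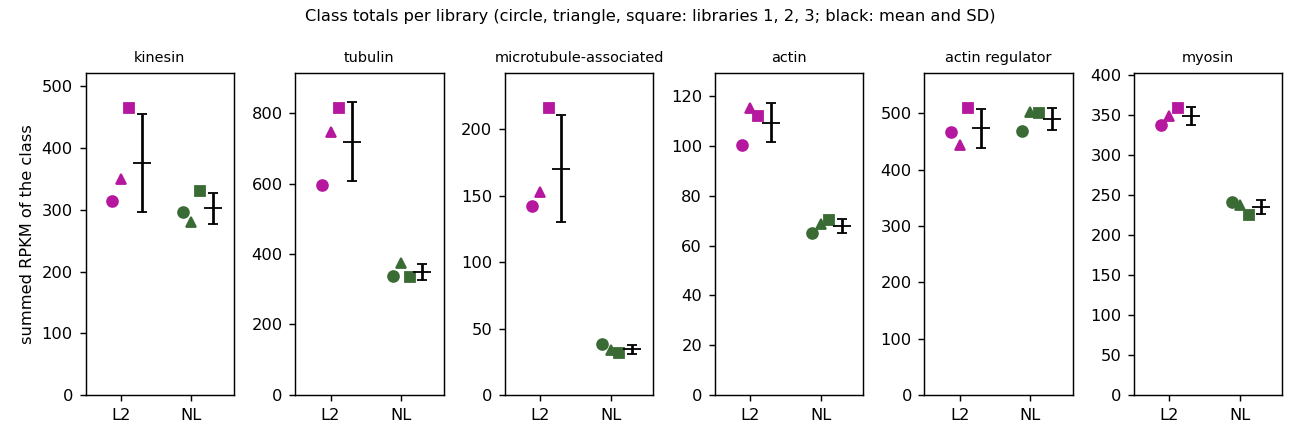
Summed RPKM of each class in every library, L2 left of NL, with the mean and SD (n = 3) in black. Microtubule-associated, tubulin, actin and myosin totals were higher in all 3 L2 libraries than in any NL library, whereas the kinesin and actin regulator totals overlap between the groups. TMM and DESeq2 factors were not applied to these totals. The mean actin and myosin totals were 1.61 and 1.49 times as high in L2, less than the shift of 0.85 on the log2 scale with TMM factors. The tubulin ratio was 2.06, less than the shift of 1.08 with DESeq2's factors.

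Among the 10 tubulin genes 7 rose and 3 fell, near the 63% and 36.3% of all listed genes. The balance among the chains was not the same in L2 and NL. An alpha-tubulin, Unigene0039342, was the most abundant of all members, with 444, 568 and 600.1 RPKM in L2 libraries against 168, 188 and 151 RPKM in NL libraries. Its log2 change was 1.66 (SE 0.20, adjusted p = 0.00021), and every L2 library was above every NL library. The other alpha-tubulin, Unigene0025948, had 22.1, 25.1 and 36.1 RPKM in L2 and 0.56, 1.64 and 2.05 RPKM in NL. Its log2 change was 4.33 (SE 0.48, adjusted p = 0.00014), the largest of the tubulin class. Together the alpha-tubulins summed to 565 ± 88.6 RPKM in L2 and 171 ± 18.1 RPKM in NL (SD, n = 3 libraries each).

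The 6 beta-tubulins went both ways. Unigene0041259, a beta-6 chain, had 34.8, 31.7 and 48.3 RPKM in L2 against 4.79, 5.19 and 5.59 RPKM in NL, and rose by 2.84 on the log2 scale (SE 0.23, adjusted p = 5.6e-05). Unigene0028863 and Unigene0041262 rose by 2.79 and 2.08. The 3 beta-tubulins that were most abundant in NL all fell. Unigene0041261 had 20.3, 34.4 and 32.9 RPKM in L2 against 52.9, 61.4 and 65.9 RPKM in NL (log2 change -1.07, SE 0.23, adjusted p = 0.0032). Unigene0041260 averaged 19.3 ± 3.8 RPKM in L2 and 52.8 ± 12.4 RPKM in NL (log2 change -1.44), and Unigene0041263 averaged 15.0 ± 3.8 RPKM in L2 and 42.7 ± 8.9 RPKM in NL (log2 change -1.51). None of these 6 genes overlapped between the groups, and few of the listed genes did (270 of 11051).

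The beta-tubulin total was lower in L2, at 119 ± 23.7 RPKM, than in NL, at 164 ± 6.1 RPKM (SD, n = 3 libraries each). Unigene0041259 made up 26.7% to 36.5% of beta-tubulin RPKM in L2 libraries and 3.0% to 3.4% in NL libraries. Unigene0041260 made up 13.1% to 19.7% in L2 and 23.4% to 39.7% in NL. The alpha-tubulin Unigene0039342 took 77.1% to 79.8% of the RPKM of all 8 listed chains in L2 and 47.4% to 52.4% in NL. Chains that the table does not list are outside these sums.

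**Figure D3:**
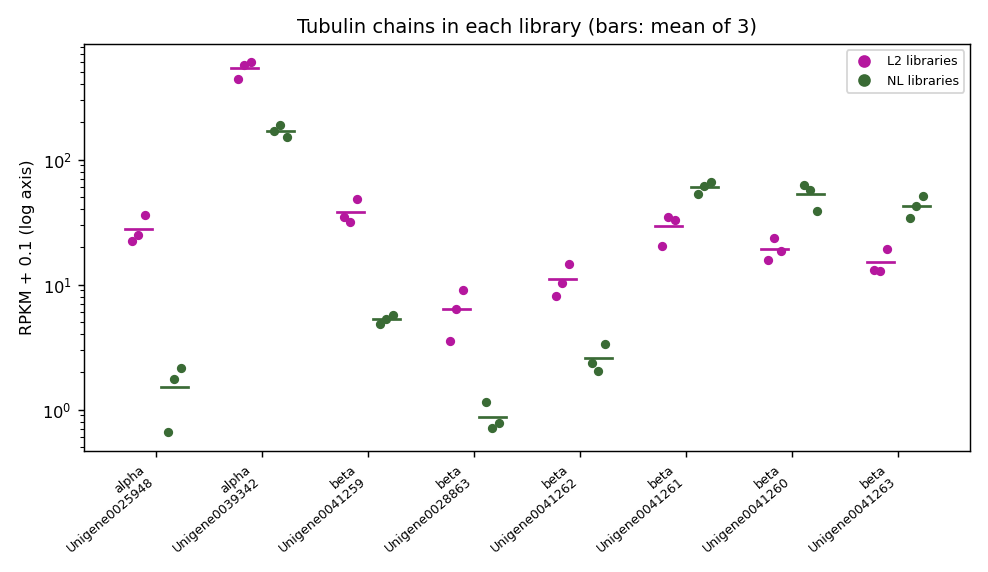
RPKM + 0.1 of the 8 tubulin chains in every library on a log axis, L2 left of NL, with bars at the means of 3 libraries. Both alpha-tubulins and 3 beta-tubulins are higher in L2, and the other 3 beta-tubulins are lower.

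Both genes that act on tubulin rose. Unigene0031091, gamma-tubulin complex component 3, a subunit of the complex from which new microtubules grow, had 6.03, 4.35 and 9.58 RPKM in L2 against 0.564, 0.497 and 0.849 RPKM in NL (log2 change 3.15, SE 0.49, adjusted p = 0.00068). Tubulin-folding cofactor A (Unigene0026251), which takes part in beta-tubulin folding, averaged 28.1 RPKM in L2 and 13.4 RPKM in NL. Its log2 change of 1.08 was -0.0011 with DESeq2.

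All 18 genes for microtubule-associated proteins were higher in L2, against 63% of all listed genes. Their median log2 change was 2.94, against 1.43, and 9 rose at least 8-fold (50%, against 23.7%). With TMM factors 15 of the 18 were higher (83.3%, against 38.6% of all listed genes) and with DESeq2 12 were (66.7%, against 25.1%). Their sum was 142, 153 and 216 RPKM in L2 libraries against 38.4, 33.6 and 31.7 RPKM in NL libraries. No library of L2 overlapped with NL for any of them, but only 270 of all 11051 listed genes overlapped.

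The 5 MAP65 genes encode cross-linkers of antiparallel microtubules, and MAP65-3 holds the middle of the phragmoplast together in Arabidopsis. The MAP65-3-like Unigene0043353 had 5.79, 8.92 and 9.17 RPKM in L2 and 1.19, 0 and 0.293 RPKM in NL (log2 change 4.41, SE 0.89, adjusted p = 0.0022). The other 4 rose by 1.32 to 2.67. With DESeq2 2 of the 5 passed. TANGLED (Unigene0030904), which marks the future division plane in maize and Arabidopsis, had 47 reads in L2 and 1 read in NL. This is a 33.5-fold ratio per library total with a 95% exact interval of 5.73 to 1353, which covers counting error only. The EB1 proteins track growing microtubule ends, and their genes Unigene0026742 (EB1C) and Unigene0030278 (EB1B) rose by 3.92 and 1.10. EB1B had a log2 change of 0.26 with TMM factors (adjusted p = 0.52) and 0.033 with DESeq2 (adjusted p = 0.95), and its adjusted p over the alternative settings ranged from 0.0060 to 0.95.

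TORTIFOLIA1 proteins bind cortical microtubules and keep organs from twisting in Arabidopsis. Unigene0027583 had 7.68, 3.58 and 12.5 RPKM in L2 and no read in NL. Its 102 reads in L2 make it at least 24.3-fold higher in L2, against a floor of 3 reads over the NL group. The much longer Unigene0048680 had 14.0, 26.9 and 31.4 RPKM in L2 against 5.20, 3.53 and 4.10 RPKM in NL (log2 change 2.40, SE 0.35, adjusted p = 0.00046). The other 3 TORTIFOLIA1 genes also rose, and the sum of the 5 was 44.7 ± 15.7 RPKM in L2 and 5.32 ± 1.34 RPKM in NL.

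MAP70 proteins accompany cortical microtubules and the patterned walls of xylem. Unigene0031730 (MAP70-2) was the most abundant gene of the class, with 30.9, 31.8 and 36.4 RPKM in L2 against 10.1, 9.16 and 9.50 RPKM in NL (log2 change 1.77, SE 0.18, adjusted p = 9.0e-05). Among the 3 genes named after futsch, a neuronal protein of Drosophila, Unigene0040229 had 16.8, 15.2 and 22.0 RPKM in L2 and 0.926, 0.544 and 0.266 RPKM in NL. Its log2 change was 4.84 (SE 0.48, adjusted p = 8.9e-05).

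Among the 52 kinesins, 42 were up-regulated in L2 (80.8%, against 63% of all listed genes), 9 were down-regulated and 1 did not pass. Their median log2 change was 2.49. With TMM factors 32 were higher (61.5%, against 38.6% of all listed genes) and with DESeq2 26 (50%, against 25.1%). With both, 9 were lower. Genes were put into families by name. All listed members of the KIN-4, KIN-5, KIN-8, KIN-10 and KIN-12 families and of the light chain-related group rose, 20 genes in all, whereas the KIN-13 family was divided. With DESeq2 1 of 3 KIN-4, 2 of 3 KIN-5 and 0 of 2 KIN-8 genes were higher. So were the KIN-10 gene, 4 of 7 KIN-12 and 3 of 4 light chain-related genes. Without L2 replicate 3 the calls of 5 of the 42 ended, those of Unigene0045397 (KIN-12E, adjusted p = 0.072), Unigene0022865 (KIN-5D, 0.051), Unigene0032090 (KIN-14N, 0.060), Unigene0051441 (KIN-14J, 0.069) and Unigene0022211 (light chain-related, 0.13). The call of Unigene0022211 also ended without L2 replicate 1, NL replicate 1 or NL replicate 2 (0.061 to 0.13), that of Unigene0022865 without L2 replicate 2 (0.054) and that of Unigene0032090 without NL replicate 2 (0.053).

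KIN-12 motors gather at the phragmoplast and at the division site, and all 7 genes put into this family by name rose. Unigene0049341, phragmoplast orienting kinesin 2, had 1.52, 1.53 and 3.76 RPKM in L2 and 0, 0.237 and 0.0579 RPKM in NL (log2 change 3.63, SE 0.64, adjusted p = 0.0011). KIN-12B (Unigene0050378) rose by 2.82. The 7 genes summed to 18.4, 19.4 and 32.2 RPKM in L2 against 3.21, 5.03 and 5.19 RPKM in NL. With DESeq2 4 of the 7 passed.

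The 3 KIN-5 genes encode motors that push spindle poles apart, and each rose at least 8-fold. The most abundant, Unigene0037097 (KIN-5D), had 14.5, 13.1 and 20.1 RPKM in L2 against 1.80, 1.67 and 1.07 RPKM in NL (log2 change 3.32, SE 0.35, adjusted p = 0.00011). NACK1 (Unigene0050184), the KIN-7 motor that drives phragmoplast expansion in tobacco, had 2.80, 3.90 and 3.11 RPKM in L2 and 0.135, 0 and 0.232 RPKM in NL (log2 change 4.07, SE 0.59, adjusted p = 0.00046). Of the 7 KIN-7 genes 6 passed, and KIN-7O (Unigene0048018) had 2.11, 1.09 and 2.66 RPKM in L2 against 1.13, 0.605 and 0.532 RPKM in NL with overlapping libraries (adjusted p = 0.060).

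KIN-10A (Unigene0030259) belongs to a family of motors that bind chromosomes in animals. It had 2.86, 4.07 and 7.35 RPKM in L2 and 0.153, 0.18 and 0 RPKM in NL, or 253 reads against 4. Its log2 change of 4.55 (SE 0.63, adjusted p = 0.00038) was the largest rise of a kinesin with reads in both groups. Unigene0007574, a short light chain-related unigene, had 36 reads in L2 and none in NL, which makes it at least 8.56-fold higher in L2.

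The KIN-4 motor FRA1 supports cell wall deposition in Arabidopsis. KIN-4A (Unigene0040161) had 12.2, 14.4 and 24.0 RPKM in L2 against 5.40, 5.85 and 5.50 RPKM in NL (log2 change 1.52, SE 0.29, adjusted p = 0.0018). The KIN-4C unigenes Unigene0045651 and Unigene0045650 rose by 3.34 and 1.59. All 3 passed with TMM factors. With DESeq2 the log2 change was 0.50 for Unigene0040161 (adjusted p = 0.13) and 0.54 for Unigene0045650 (adjusted p = 0.18).

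**Figure D4:**
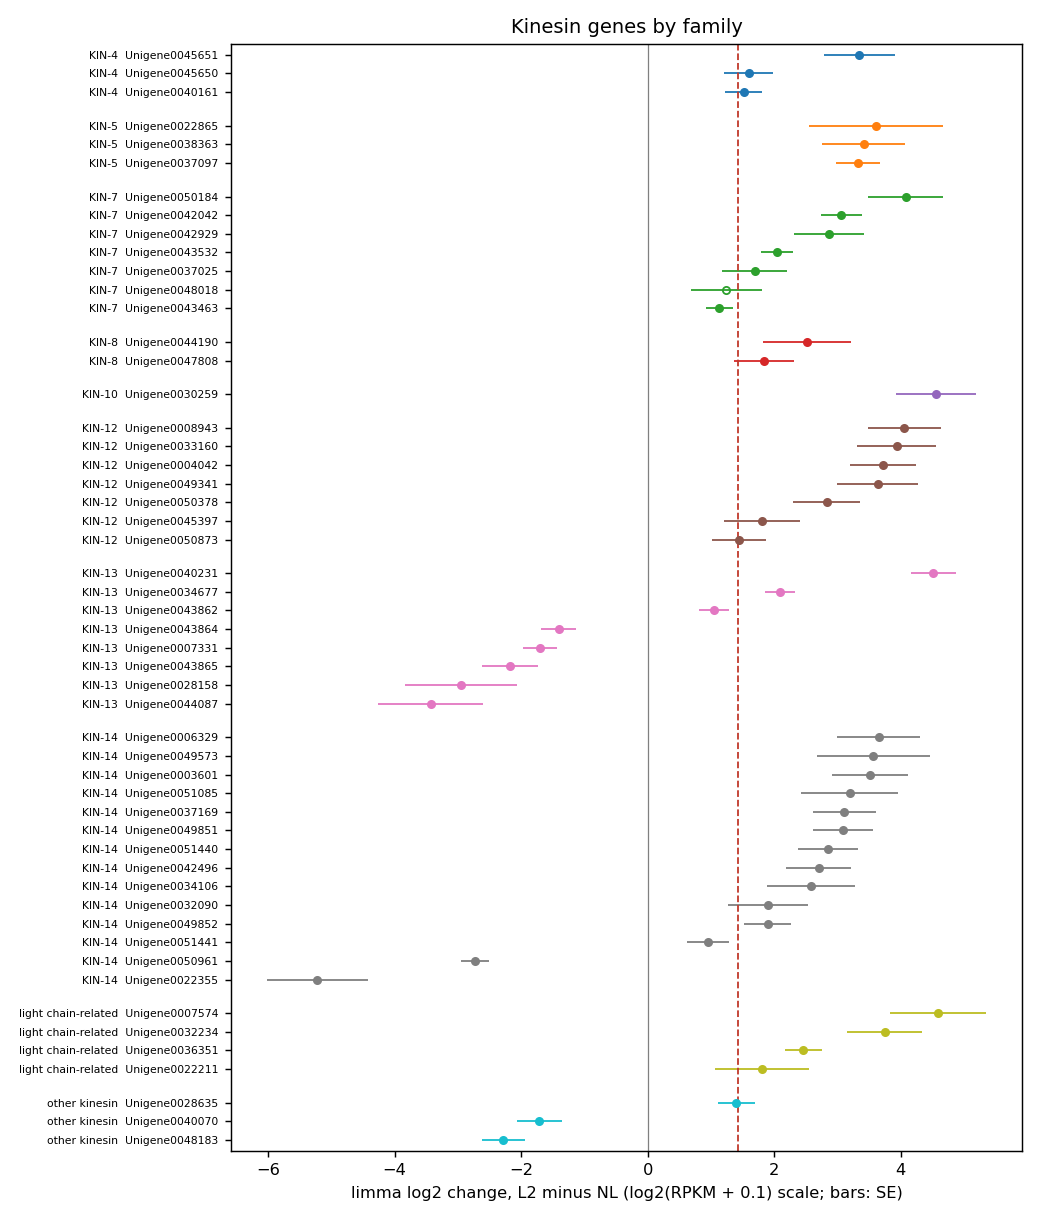
Log2 change of the 52 kinesin genes, L2 minus NL, with SE bars, by family; the open circle did not pass and the dashed line is the median of all listed genes (1.43). The KIN-13 family is divided into 3 genes above 0 and 5 below, and 2 KIN-14 genes lie far below the other 12.

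KIN-14 motors walk toward microtubule minus ends, and 12 of the 14 rose, by 0.95 to 3.65. With TMM factors 10 of the 14 were higher (71.4%, against 38.6% of all listed genes) and with DESeq2 9 (64.3%, against 25.1%). The smallest rise, of Unigene0051441 (KIN-14J), was 0.14 with TMM factors (adjusted p = 0.65) and -0.091 with DESeq2 (adjusted p = 0.82). Among the 12 that rose were relatives of the spindle motor ATK1 (Unigene0049573, KIN-14C, log2 change 3.57) and of KCBP, which shapes leaf hairs in Arabidopsis (Unigene0037169, KIN-14E, 3.11). The most abundant kinesin of all went the other way. Unigene0050961, annotated as KIN-14B with the symbol KCA1, whose Arabidopsis relatives are known for the placement of chloroplasts, had 11.8, 20.04 and 17.8 RPKM in L2 against 108, 103 and 113 RPKM in NL. It fell by 2.73 on the log2 scale (SE 0.22, adjusted p = 5.6e-05), in the same libraries in which the markers of photosynthetic tissue were lower.

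The 14 KIN-14 genes summed to 81.1 ± 20.03 RPKM in L2 and 127 ± 7.0 RPKM in NL, although 12 of them rose. All 52 kinesins summed to 377 ± 79.3 RPKM in L2 and 302 ± 25.3 RPKM in NL, and this order turned round with upper quartile scaling (log2 ratio -0.19, against 0.32). Without Unigene0050961, left out after its values were seen, the sum was 360.0 ± 77.4 RPKM in L2 and 194 ± 20.1 RPKM in NL. The other falling KIN-14 unigene, Unigene0022355, named KIN-14I, had 2 reads in L2 and 58 in NL. This is a ratio of 0.0246 per library total with a 95% exact interval of 0.00291 to 0.093, and 2 longer KIN-14I unigenes, Unigene0049851 and Unigene0049852, rose by 3.09 and 1.90.

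KIN-13 proteins shorten microtubules from their ends and act in wall patterning and trichome shape in plants. The abundant KIN-13A gene Unigene0034677 had 30.1, 30.8 and 44.3 RPKM in L2 against 8.26, 9.70 and 6.48 RPKM in NL (log2 change 2.09, SE 0.24, adjusted p = 0.00017). KIN-13B Unigene0040231 had 16.3, 15.8 and 25.2 RPKM in L2 and 0.668, 0.784 and 0.718 RPKM in NL (log2 change 4.51). Against these, KIN-13B Unigene0043864 had 9.05, 13.3 and 6.78 RPKM in L2 and 29.4, 22.6 and 23.3 RPKM in NL (log2 change -1.41). The kinesin-13A-like Unigene0007331 had 8.85, 14.1 and 11.8 RPKM in L2 against 36.0, 28.5 and 50.6 RPKM in NL (log2 change -1.71, SE 0.27, adjusted p = 0.00074). The 4 genes named kinesin-13A-like all fell. The family total was 91.4 ± 12.6 RPKM in L2 and 94.3 ± 15.1 RPKM in NL, a difference smaller than the spread between libraries.

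Families were read from the names, and 3 kinesins were left unplaced, which does not set them outside the families above. Kinesin-related protein 4 (Unigene0048183) and a KIF15-named gene (Unigene0040070) fell by 2.28 and 1.71, and kinesin-related protein 6 (Unigene0028635) rose by 1.40.

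Genes of the same machinery that do not carry a kinesin, tubulin or actin name were taken from a separate word list of division and cytoskeleton terms. Of 43 such genes 39 were higher in L2 (90.7%, against 63% of all listed genes) and 4 were lower. Their median log2 change was 2.03 against 1.43 for all listed genes, and 11 rose at least 8-fold (25.6%, against 23.7%). With TMM factors 20 of the 43 were higher (46.5%, against 38.6% of all listed genes) and with DESeq2 17 (39.5%, against 25.1%). Another 4 rows held the letters of a term inside another name (claspin, NAP1-related and calcyclin-binding proteins) and were set apart. ASPM (Unigene0052460), a spindle pole protein, had 2.40, 3.78 and 5.19 RPKM in L2 and 0, 0.112 and 0.163 RPKM in NL (log2 change 4.39, SE 0.58, adjusted p = 0.00032). KNOLLE (Unigene0026299), the syntaxin that fuses vesicles into the cell plate, had 7.03, 6.24 and 15.0 RPKM in L2 against 0.779, 0.457 and 0.67 RPKM in NL (log2 change 3.61). TPX2, a spindle assembly factor, was listed as 3 unigenes that rose by 1.85 to 3.47. The genes that fell were a cyclin-B2-2-like gene (Unigene0028111, -1.66), an inner centromere protein (Unigene0045771, -1.38), a ROP guanine nucleotide exchange factor (Unigene0003402, -1.29) and 1 of 4 Aurora kinase unigenes (Unigene0036027). That Aurora unigene had no read in L2 and 0, 12 and 6 reads in the NL libraries, so that the groups overlap, and it did not pass with DESeq2 (adjusted p = 0.11). The other 3 Aurora unigenes rose.

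On the actin side the listed actins themselves were few and low, and actins that the authors had not called are outside the list. Actin-11 (Unigene0024122) had 2.77, 7.52 and 2.12 RPKM in L2 and no read in NL, which makes it at least 19.3-fold higher in L2 against the floor of 3 reads. Actin-7 (Unigene0000540) had 3.36, 5.47 and 4.91 RPKM in L2 against 11.7, 10.7 and 10.9 RPKM in NL (log2 change -1.29), but the file pairs this unigene with the symbol RPN11, a proteasome subunit. The 2 partial Actin-5C unigenes, named after a Drosophila actin, were each high in 1 L2 library. Unigene0043856 had 0, 11.9 and 0.567 RPKM in L2 and no read in NL, and did not pass (adjusted p = 0.064). Its adjusted p ranged from 0.014 to 0.25 over the alternative settings. Unigene0041619 had 0.823, 1.37 and 9.61 RPKM in L2 against 0.195, 0.688 and 0.168 RPKM in NL (log2 change 2.57, adjusted p = 0.028). Without L2 replicate 3 its log2 change was 1.56 (adjusted p = 0.057), and it did not pass without NL replicate 1 or NL replicate 3 (0.080 and 0.085).

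Actin-related proteins of the ARP2/3 complex, which starts branched filaments, were higher in L2. ARP3 (Unigene0036578) had 19.99, 12.98 and 19.9 RPKM in L2 against 3.37, 3.58 and 3.08 RPKM in NL (log2 change 2.34, SE 0.27, adjusted p = 0.00018). The subunits ARPC3 (Unigene0036908) and ARPC1B (Unigene0040113) rose by 1.71 and 1.45, and neither passed with TMM factors or DESeq2. The adjusted p over the alternative settings ranged from 0.00057 to 0.16 for ARPC3 and from 0.00054 to 0.26 for ARPC1B. NAP1 (Unigene0047743), a subunit of the complex that activates ARP2/3, was on the separate word list and rose by 1.47. ARP7, a nuclear protein of chromatin remodelling in Arabidopsis, was split between 2 unigenes. Unigene0027930 had 3.25, 6.10 and 3.99 RPKM in L2 and 0, 0.667 and 0.733 RPKM in NL, and Unigene0031272 had 7.98, 9.03 and 8.75 RPKM in L2 against 17.8, 17.6 and 26.6 RPKM in NL. A gene named after yeast pan1 (Unigene0037841), which is part of actin-driven endocytosis there, rose by 2.20, and a phosphatase and actin regulator (Unigene0029023) fell by 1.45.

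Among the actin regulators 22 of 28 rose (78.6%) and 6 fell (21.4%), against 63% and 36.3% of all listed genes. With TMM factors 14 were higher (50%, against 38.6% of all listed genes) and with DESeq2 7 (25%, against 25.1%). With both, 6 were lower. Profilin-4 (Unigene0029155), which binds actin monomers and feeds them to formins, had the smallest adjusted p of the class. It had 52.7, 46.8 and 44.6 RPKM in L2 against 2.29, 2.68 and 3.74 RPKM in NL (log2 change 4.03, SE 0.24, adjusted p = 3.4e-05). Villin-2 (Unigene0046255), which bundles filaments, had 54.1, 63.8 and 65.4 RPKM in L2 against 19.5, 25.5 and 17.8 RPKM in NL (log2 change 1.55, SE 0.19, adjusted p = 0.00023), and its adjusted p over the alternative settings ranged from 4.2e-05 to 0.052, the last with DESeq2.

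The 3 SCAB genes encode actin-binding proteins named for their part in stomatal closure, and all rose. SCAB3 (Unigene0043227) had 12.1, 17.8 and 21.7 RPKM in L2 and 1.14, 1.57 and 1.44 RPKM in NL (log2 change 3.51), and SCAB1 (Unigene0038617) had 23.3, 24.0 and 26.4 RPKM in L2 and 4.57, 4.998 and 3.30 RPKM in NL (log2 change 2.51). The actin-depolymerizing factor family binds actin and alters filament turnover, and its 2 listed genes moved apart. Unigene0034739 had 13.5, 12.9 and 12.8 RPKM in L2 against 4.17, 2.80 and 4.51 RPKM in NL (log2 change 1.78), and ADF5 (Unigene0027125) had 12.4, 11.4 and 18.9 RPKM in L2 against 38.7, 36.5 and 45.7 RPKM in NL (log2 change -1.52). With DESeq2 0 of the 2 were called higher. Actin-interacting protein 1 (Unigene0034882), a partner of these factors, rose by 2.76. Its NL libraries had 1.68, 0.165 and 0.241 RPKM. It was not called higher with TMM factors (log2 change 1.57) or DESeq2 (1.34), and did not pass without L2 replicate 1 (adjusted p = 0.0501).

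Formins nucleate unbranched filaments, and 15 of the 20 formin unigenes rose (75%, against 63% of all listed genes) while 5 fell. Among the 5 that fell were the 3 with the highest NL levels, and the formin total was lower in L2, at 273 ± 27.3 RPKM, than in NL, at 409.9 ± 16.7 RPKM. The short Unigene0028555, named formin-2-like, had 50.7, 41.6 and 21.1 RPKM in L2 against 136, 214 and 185 RPKM in NL (log2 change -2.30, SE 0.34, adjusted p = 0.0005). A formin-like protein 18 unigene, Unigene0030163, had 31.1, 18.2 and 34.4 RPKM in L2 against 85.4, 82.4 and 90.2 RPKM in NL (log2 change -1.67, SE 0.25, adjusted p = 0.00054). The longest unigene with that name, Unigene0050301, rose instead, with 24.2, 25.5 and 27.8 RPKM in L2 against 8.56, 10.997 and 7.63 RPKM in NL (log2 change 1.52). Formin-like protein 20 behaved likewise, since Unigene0027369 had 67 reads in NL and none in L2, at least 31.3-fold lower in L2, while the 3 longer unigenes of that name rose by 1.01, 1.17 and 1.496. The 3 formin-like protein 11 unigenes rose, and Unigene0025008 had 53 reads in L2 and none in NL, at least 12.6-fold higher in L2. With TMM factors 8 of the 20 formin unigenes were higher in L2 (40%, against 38.6% of all listed genes), and with DESeq2 4 were (20%, against 25.1%). The calls of 3 formin unigenes ended when any of several libraries was left out. That of Unigene0030533 ended without L2 replicate 2 or 3 or NL replicate 1 or 3 (adjusted p = 0.053 to 0.080), that of Unigene0035463 without L2 replicate 1 or 3 or NL replicate 2 or 3 (0.068 to 0.084), and that of Unigene0048333 without any 1 library other than L2 replicate 2 (0.053 to 0.11).

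**Figure D5:**
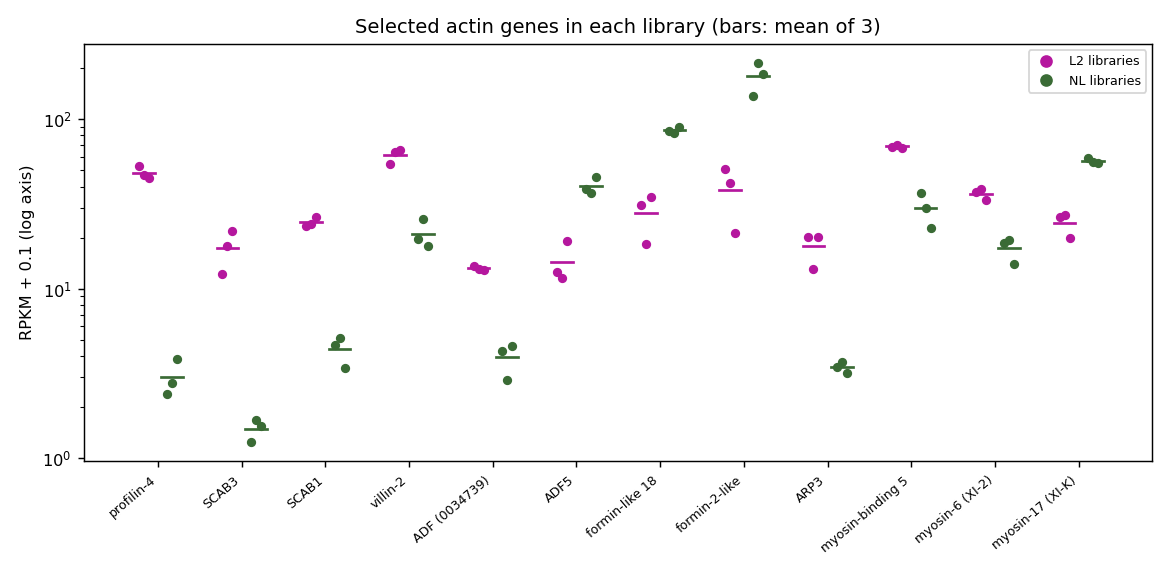
RPKM + 0.1 of 12 actin genes in every library on a log axis, L2 left of NL, with bars at the means of 3 libraries. Of the 12 genes plotted, profilin-4 shows the widest gap upward in L2, and formin-2-like, formin-like 18, ADF5 and myosin-17 are lower in L2 in all libraries.

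Of the 28 myosin genes 21 rose (75%, against 63% of all listed genes) and 7 fell. With TMM factors 9 were higher (32.1%, against 38.6% of all listed genes) and with DESeq2 6 (21.4%, against 25.1%). With both, 7 were lower, so the excess of rises over falls rests on the scaling. The 2 numbered myosin motors with the highest NL levels fell. Myosin XI motors carry organelles along actin in plants. Myosin-17 (Unigene0003814, symbol XI-K) had 26.3, 27.1 and 19.9 RPKM in L2 against 59.2, 55.5 and 54.7 RPKM in NL (log2 change -1.22, SE 0.18, adjusted p = 0.00049). Myosin-11 (Unigene0049391) had 24.6, 16.04 and 23.9 RPKM in L2 against 40.1, 49.1 and 53.6 RPKM in NL (log2 change -1.16, SE 0.22, adjusted p = 0.0018). Myosin VIII-2 (Unigene0044575), of a class found at cell plates and plasmodesmata, fell by 1.04. Myosin-6 (Unigene0049526, symbol XI-2) went up, with 37.2, 38.4 and 33.1 RPKM in L2 against 18.4, 19.2 and 13.9 RPKM in NL (log2 change 1.08). Of the 11 numbered myosins 7 rose and 4 fell, near the 63% and 36.3% of all listed genes, and 2 were higher and 4 lower with TMM factors and with DESeq2. Their sum was 128 ± 5.9 RPKM in L2 and 149 ± 3.5 RPKM in NL.

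All 4 myosin-binding proteins, membrane receptors that link vesicles to myosin XI, rose, and their sum was 108, 140 and 127 RPKM in L2 libraries and 61.5, 46.7 and 39.0 RPKM in NL libraries. None of the 4 passed with TMM factors or with DESeq2. The most abundant, Unigene0035736 (myosin-binding protein 5), had 68.7, 70.5 and 67.6 RPKM in L2 against 36.6, 29.8 and 22.6 RPKM in NL. Its log2 change of 1.24 (SE 0.20, adjusted p = 0.0008) was 0.37 with TMM factors (adjusted p = 0.15) and 0.14 with DESeq2 (adjusted p = 0.62), and its adjusted p ranged from 0.00031 to 0.62 over the alternative settings. Myosin-binding protein 1 (Unigene0041600) had 1.77, 11.1 and 6.78 RPKM in L2 against 1.54, 0.987 and 2.05 RPKM in NL with overlapping libraries. It passed (adjusted p = 0.038) but did not pass without any 1 library other than L2 replicate 1 (0.052 to 0.15).

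Several names in this class come from animals or slime moulds and describe a match, not a known plant function. Unigene0023617, named after a myosin-G heavy chain, had 11.5, 12.7 and 11.2 RPKM in L2 and no read in NL, at least 29.7-fold higher in L2. A second unigene of that name, Unigene0004082, had 0.351, 0.455 and 0 RPKM in L2 against 4.08, 5.47 and 6.27 RPKM in NL (log2 change -4.18, SE 0.73, adjusted p = 0.0011). Unigene0038563, a heavy chain-related gene, had 12 reads in NL and none in L2. The 3 unigenes named myosin heavy chain kinase B, an enzyme of Dictyostelium, had 38, 22 and 25 reads in L2 and none in NL, and Unigene0017710 was at least 9.04-fold higher in L2. The 3 genes named paramyosin, an invertebrate muscle protein, rose by 1.10 to 2.39.

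Length and detection differed among the members. Of the 120 members of at least 1000 nt, 100 rose (83.3%, against 63% of all listed genes) and 19 fell. Of the 28 shorter ones 18 rose (64.3%) and 9 fell. No read was found in NL for 14 of the 148 members and none in L2 for 2, against 889 and 437 of all 11051 listed genes. Of these 16 members, 15 were under 1000 nt. At these depths, such a count of 0 allows up to 3 reads over the 3 libraries of a group.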

How the data were processed

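RNA of L2 and NL stems was sequenced by the authors, assembled de novo, and clean reads were mapped to the unigenes with Bowtie2; the counting tool and its settings are not given in the sources used here. The authors deposited RPKM values per library and the mean read count of each group, an estimated count that need not be whole. Their log2 ratio, p-value and FDR columns hold the authors' own comparison and were not used. The RPKM values with the mean counts gave back the reads of each library, its total and the length of each unigene, and 59302 of 59302 values above 0 were whole reads within 0.05. The listed genes took 43.9% to 44.2% of reads in L2 and 46.0% to 48.6% in NL. Intervals and floors cover counting error only. The labels give 1 sample per group, and the 3 libraries of each were taken from the table's columns. The study describes them as biological replicates of mixed plants, and p-values measure the spread between these libraries.

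Genes were tested with limma 3.58.1 (trend) on log2(RPKM + 0.1) in R 4.3.3. Alternatives were pseudocounts of 1 and 0.01, a filter of RPKM 1 or more in 3 or more libraries, upper quartile scaling, a replicate block, leaving out each library, edgeR 4.0.16 (quasi-likelihood, TMM factors or library totals) and DESeq2 1.42.0 on the recovered reads. Read recovery and tests were tested on simulated data. Summaries and plots were made in Python 3.11.15 with pandas 2.3.3, numpy 2.4.6, matplotlib 3.10.9 and scipy 1.17.1.

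In each class the 3 members with the highest mean RPKM, the 3 with the largest change among those with at least 30 reads, the largest change against the class and the member without reads in a group that had the most reads were named. Other genes were named after their values were seen. Members and lists were chosen with earlier results of these data known. No sequences or genome positions were used.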

Additional observations from a re-analysis of the deposited data

How the results depend on the processing

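Pseudocounts, the filter, the block and library totals left the counts of up-regulated and down-regulated genes within 1.5 times. With DESeq2 44 microtubule genes were higher in L2, against 67, and the actin genes numbered 29 with TMM factors and 17 with DESeq2, against 51. Leaving out 1 library at a time gave 62 to 67 microtubule and 43 to 49 actin genes higher, 12 microtubule genes lower each time and 15 to 16 actin genes lower, with medians of 2.25 to 2.70 and 1.47 to 1.58. The median log2 change of microtubule genes moved to 1.59 with a pseudocount of 1, 2.04 with upper quartile scaling, 1.64 with TMM factors and 1.42 with DESeq2, and that of actin genes to 1.30, 1.05, 0.68 and 0.46. No member's sign turned under TMM factors, but 7 turned with DESeq2, all among rises near 1. The kinesin total turned to a log2 ratio of -0.19 with upper quartile scaling. Scaling factors were computed from listed genes only, and which scaling holds was not tested. Same-numbered L2 and NL libraries correlated at 0.02 to 0.06 and differently numbered ones at -0.046 to 0.011, all near 0. The same-numbered values were the higher, and whether the numbers pair the libraries was not tested. The replicate block gave 67 microtubule and 51 actin genes higher, with 1 call lost. Depth limits the short unigenes, where 1 read weighs most.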
